A study of Mus musculus with 6 samples.

Results

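KNDy neurons of the arcuate nucleus (ARC) are named for the peptides they make, kisspeptin, neurokinin B and dynorphin. The genes described here are the 3 that encode these peptides (*Kiss1*, *Tac2* and *Pdyn*), the 3 that encode their receptors (*Kiss1r*, *Tacr3* and *Oprk1*) and *Gnrh1*, which encodes gonadotropin-releasing hormone (GnRH). They were chosen by name with earlier results of these data known. These 7 of the 24015 genes listed in the count data were all measured above the filter on low counts. RNA sequencing was done on microdissected ARC from 3 control and 3 *Esr1*Nkx2-1Cre adult female mice on a mixed CD-1, 129P2 and C57BL/6 background. Both groups carried the floxed *Esr1* alleles (*Esr1*fl/fl), and the controls carried no Cre. In the mutants, Cre driven by *Nkx2-1* removes estrogen receptor alpha (ERα, encoded by *Esr1*) throughout the medial basal hypothalamus from development on, so the ventromedial nucleus loses it as well and the deletion is not limited to KNDy neurons. The comparison addresses how loss of ERα in this region alters transcripts of the ARC. Each sample was labelled as a replicate of its genotype, and the p-values measure only the spread between these 6 samples.

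Kisspeptin excites GnRH neurons through its receptor on their cell bodies and terminals, and so drives the release of luteinizing hormone. Within the ARC, neurokinin B acts on KNDy neurons through its receptor NK3 to start bursts of firing, and dynorphin acts through the kappa opioid receptor to end them. Estrogen restrains KNDy peptide expression in the ARC of rodents, while it raises *Kiss1* in a separate group of neurons in the anteroventral periventricular nucleus.

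Each peptide is cut from a longer precursor at pairs of basic residues, and the coding stretches of kisspeptin-10, neurokinin B and GnRH show what the counted transcripts encode. They were read from the GENCODE transcripts on NCBIM37 and are written 5′ to 3′ on the coding strand. Capitals mark the codons of the peptide, and the lower-case letters that follow encode the residues at which it is cut, which begin with the glycine that is turned into the amide at the end of the peptide.

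Kisspeptin-10, in *Kiss1*, chr1:135226157-135226195, plus strand: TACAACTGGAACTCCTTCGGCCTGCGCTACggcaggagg
Neurokinin B, in *Tac2*, chr10:127166172-127166210, plus strand: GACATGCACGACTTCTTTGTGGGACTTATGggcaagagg
GnRH, in *Gnrh1*, chr14:68364466-68364504, plus strand: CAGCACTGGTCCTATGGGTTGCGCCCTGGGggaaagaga

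Kisspeptin-10 takes residues 106 to 115 of a precursor of 126, and neurokinin B takes residues 82 to 91 of 116. The GnRH decapeptide follows the signal peptide at residues 22 to 31 of 90. The peptide codons make up 3.85% of the *Kiss1* transcript, 4.41% of *Tac2* and 5.76% of *Gnrh1*, so the counts report precursor transcripts and not peptides.

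Libraries held between 11792440 and 17877137 counts on genes, at which 3 counts correspond to between 0.175 and 0.248 CPM (counts per 1000000 of the library after TMM normalization). The targeted gene followed the labels, with *Esr1* at 64.5, 57.5 and 48.5 CPM in controls against 11.8, 9.55 and 7.06 CPM in mutants (log2 fold change -2.59, SE 0.18, edgeR adjusted p = 0.000884). Summed markers of other ARC neurons, such as *Agrp*, *Npy* and *Pomc*, were at 1539 to 1675 CPM in controls against 1449 to 1736 CPM in mutants. The largest part of this sum was *Sst* in every library. Of the 9 log2 fold changes in the list, 7 were positive, with a median of 0.22 beside 0.00 for all genes tested. Within that list of 9, *Slc6a3*, the dopamine transporter gene, fell from a mean of 24.3 to 5.08 CPM (edgeR adjusted p = 0.000884), *Sst* was lower in every mutant (848 and 597 CPM) and *Cartpt* higher (206 and 294 CPM). Ventromedial nucleus markers were present in all 6 libraries, at a summed 44.4, 149.8 and 111 CPM in controls against 75.5, 229.6 and 281 CPM in mutants, with replicate 1 of each genotype the lowest. All 6 oligodendrocyte markers were higher in every mutant than in every control, with sums of 551 to 1045 CPM against 1365 to 1529 CPM. Of all genes tested, 7.88% separated upward in this way. Of the 6, edgeR called 1 (*Cldn11*) and DESeq2 called 3 (*Cldn11*, *Mbp* and *Mog*). Over all genes tested, edgeR called 0.118% and DESeq2 called 1.26%. The 3 microglial markers summed to 115 to 127 CPM in controls against 151 to 165 CPM in mutants. Of these, 2 were higher in every mutant (*Cx3cr1*, which DESeq2 called, and *Csf1r*), and *P2ry12* overlapped. Pituitary and pars tuberalis markers summed to 6.11 CPM in control replicate 2 and to between 472 and 772 CPM in the other 5 libraries. Magnocellular markers (3.01 to 20.1 CPM in controls, 7.51 to 37.6 CPM in mutants) and lateral hypothalamic markers (1.40 to 2.87 CPM and 1.73 to 10.05 CPM) were low in each library. General neuronal markers overlapped, at 4211 to 5389 CPM in controls against 4392 to 5893 CPM in mutants. The part of these differences in the results that follow was not tested.

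Transcripts of all 3 KNDy peptides were higher in every mutant than in every control, whereas the mean of each of the 3 receptors was lower in mutants with the genotypes overlapping. For *Gnrh1*, every mutant lay below all controls. None of the 7 passed the edgeR test over all genes (adjusted p from 0.114 for *Pdyn* to 0.851 for *Kiss1r*), in a comparison that called 18 of 15236 genes, or 0.118%. DESeq2 called 3 of the 7, *Kiss1*, *Tac2* and *Pdyn*, where it called 1.26% of the 15105 genes it tested, 97 higher and 94 lower. Of the 7, 5 had an edgeR p under 0.05 before adjustment, against 8.85% of all genes tested. The genotypes separated upward for 3 of the 7 and downward for 1, where 7.88% of all genes separated upward (1201 genes) and 7.88% downward (1200 genes). Because the 7 were chosen with earlier results of these data known, these counts are descriptions and not independent support. In bulk tissue, a different number of cells and a different amount of RNA per cell cannot be told apart.

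**Figure D1:**
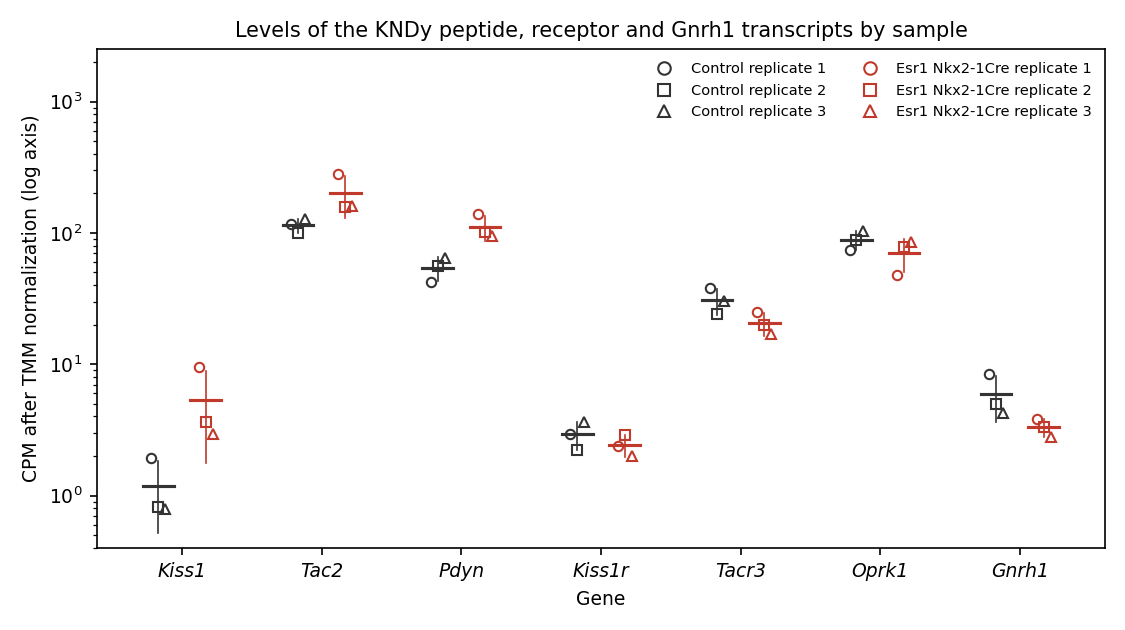
CPM after TMM normalization (log axis) of each gene in each sample, with controls in black and *Esr1*Nkx2-1Cre mutants in red; symbols give the replicate number, horizontal bars the mean and vertical bars 1 SD of 3 samples. The 3 peptide genes on the left lie higher in all mutants than in all controls, the receptor genes overlap between genotypes, and *Gnrh1* lies lower in all mutants.

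*Kiss1* (chr1:135218452-135226478 on NCBIM37, plus strand) was counted 29, 14 and 11 times in controls and 115, 58 and 44 times in mutants. These counts correspond to 1.94, 0.814 and 0.789 CPM in controls against 9.49, 3.64 and 2.93 CPM in mutants, so replicate 1 was the highest library of each genotype. The lowest mutant was above the highest control. The fitted difference was 4.47-fold (log2 fold change 2.16, SE 0.55, 95% interval 0.91 to 3.41), with an edgeR p of 0.00379 before adjustment and an adjusted p of 0.258. DESeq2 gave an adjusted p of 0.00485. Without mutant replicate 1 the edgeR log2 fold change was 1.47, and without control replicate 1 it was 2.71. *Kiss1* had the highest log2 fold change of the 7 genes and the lowest counts of the peptide genes. The annotation gives 102 of the 779 exon bases of *Kiss1* (13.1%) also to *Golt1a* on the same strand, and *Golt1a* had between 2 and 8 counts per library.

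*Tac2* (chr10:127162448-127168823, plus strand), the neurokinin B gene, was the most abundant of the peptide transcripts. It was at 117, 99.3 and 126.5 CPM in controls against 281, 157 and 161 CPM in mutants. Mutant replicate 1 stood well above the other two mutants, which lay closer to the controls but did not overlap with them. The fitted difference was 1.75-fold (log2 fold change 0.80, SE 0.25, 95% interval 0.20 to 1.41), with an edgeR adjusted p of 0.415 and a DESeq2 adjusted p of 0.00485. Without mutant replicate 1 the log2 fold change was 0.48.

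*Pdyn* (chr2:129512301-129525580, minus strand), which encodes prodynorphin, came closest to the threshold. Its levels were 42.4, 56.4 and 64.6 CPM in controls against 139, 101 and 94.3 CPM in mutants, again with replicate 1 the highest of the mutants, though here control replicate 1 was the lowest control. The fitted difference was 2.05-fold (log2 fold change 1.03, SE 0.19, 95% interval 0.59 to 1.48). The edgeR adjusted p was 0.114, rank 95 among all genes by p, and the DESeq2 adjusted p was 3.92e-06. *Pdyn* is also used by hypothalamic neurons that are not KNDy neurons, among them magnocellular vasopressin neurons. The magnocellular markers (*Avp* and *Oxt* summed) were at 4.355, 20.1 and 3.01 CPM in control replicates 1 to 3. In mutant replicates 1 to 3 they were at 7.51, 25.1 and 37.6 CPM. The part of such neurons in the *Pdyn* difference was not tested. Leaving out each sample in turn gave log2 fold changes between 0.84 and 1.17, with none past the threshold.

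The 3 receptor genes did not separate the genotypes. *Kiss1r* (chr10:79379716-79385018, plus strand), whose receptor is best known on GnRH neurons outside the ARC, had 44, 38 and 51 counts in controls and 29, 46 and 30 in mutants. In CPM these were 2.95, 2.21 and 3.66 against 2.39, 2.89 and 2.00. Mutant replicates 1 and 2 lay within the control range, and the log2 fold change of -0.27 had an interval from -0.92 to 0.38 (edgeR adjusted p = 0.851). The exact two-sided permutation p over samples was 0.4, where the smallest that 3 against 3 samples allow is 0.1.

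*Tacr3* (chr3:134491971-134597545, plus strand) encodes NK3, the receptor through which neurokinin B acts on KNDy neurons themselves. It was at 38.0, 24.1 and 30.1 CPM in controls against 24.9, 19.98 and 16.9 CPM in mutants. Only mutant replicate 1 was above a control, namely replicate 2. The log2 fold change was -0.58 (SE 0.19, 95% interval -1.01 to -0.14), with an edgeR p of 0.0147 before and 0.395 after adjustment, and a DESeq2 adjusted p of 0.173.

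*Oprk1* (chr1:5578574-5596212, plus strand), the kappa opioid receptor gene, was at 74.6, 88.2 and 102.9 CPM in controls against 47.5, 78.6 and 84.7 CPM in mutants. In both genotypes replicate 1 was the lowest, which is the reverse of *Kiss1*. Mutant replicates 2 and 3 were within the control range, and the log2 fold change of -0.33 had an interval from -0.87 to 0.20 (edgeR adjusted p = 0.743). Without mutant replicate 1 it was -0.12.

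GnRH neurons have their cell bodies mostly in the preoptic area, in front of the tissue dissected here, and send their fibers to the median eminence beneath the ARC. *Gnrh1* (chr14:68363286-68367492, plus strand) was counted 126, 86 and 59 times in controls and 46, 53 and 42 times in mutants, or at 8.44, 5.003 and 4.23 CPM against 3.795, 3.33 and 2.798 CPM. Control replicate 1 stood above the other libraries, and the gap between the lowest control and the highest mutant was narrow. The log2 fold change was -0.84 (SE 0.29, 95% interval -1.48 to -0.20), with an edgeR adjusted p of 0.402 and a DESeq2 adjusted p of 0.372. Without control replicate 1 it was -0.49.

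**Figure D2:**
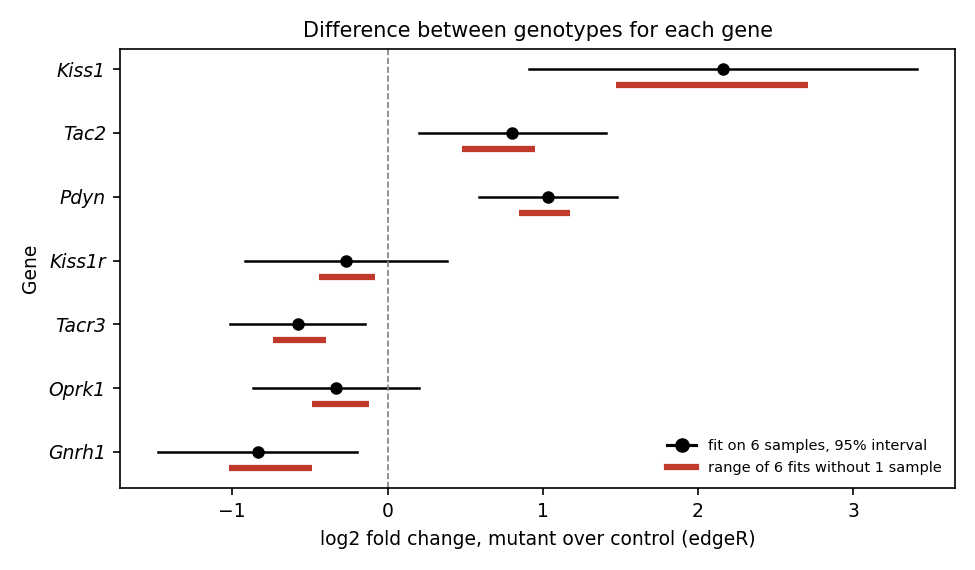
Log2 fold change of mutant over control for each gene (x axis) from the edgeR fit, with black points and lines for the estimate and its 95% interval on 6 samples and red bars for the range of the 6 fits that leave out 1 sample. The intervals of *Kiss1r* and *Oprk1* cross 0 and the other 5 do not, before any adjustment for the number of genes; *Kiss1* has the widest interval, from 0.91 to 3.41.

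Scaled by exon length, levels can be set against each other between genes. In controls, *Tac2* was at 168 ± 20.4 CPM per kilobase (SD, n = 3), far above *Pdyn* at 18.9 ± 3.90. *Oprk1* followed at 12.95 ± 2.07, *Gnrh1* at 11.3 ± 4.30 and *Tacr3* at 8.16 ± 1.85. *Kiss1* at 1.52 ± 0.846 and *Kiss1r* at 0.929 ± 0.229 were the lowest. In this order *Tac2* stood apart from *Pdyn* and *Tacr3* from *Kiss1* by more than their SDs, while each other pair of neighbours overlapped within 1 SD.

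In mutants *Tac2* was at 294 ± 103 CPM per kilobase and *Pdyn* at 38.6 ± 8.34 (SD, n = 3). *Oprk1* was at 10.3 ± 2.92, *Kiss1* at 6.87 ± 4.62, *Gnrh1* at 6.35 ± 0.958, *Tacr3* at 5.47 ± 1.08 and *Kiss1r* at 0.767 ± 0.141. *Kiss1* thus moved from the sixth place to the fourth, but it overlapped within 1 SD with its neighbours there. *Tac2* stood apart from *Pdyn*, *Pdyn* from *Oprk1* and *Tacr3* from *Kiss1r* by more than their SDs, and the other neighbours overlapped. The neurokinin B transcript was the most abundant in both genotypes. The lengths are those of the GENCODE gene models, which may differ from those used in counting.

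Ratios between genes of the same library do not depend on how libraries are scaled, and as ratios of counts they are compared between genotypes only. The log2 ratio of *Kiss1* to *Tac2* counts was -5.89, -6.88 and -7.26 in controls and -4.88, -5.42 and -5.77 in mutants. *Kiss1* was thus higher relative to *Tac2* in each mutant, by 1.32 on average. The gap was narrow between control replicate 1 (-5.89) and mutant replicate 3 (-5.77), in which *Kiss1* had 29 and 44 counts. The ratio of *Tac2* to *Pdyn* was 1.47, 0.82 and 0.97 in controls and 1.01, 0.64 and 0.78 in mutants, and overlapped. The *Kiss1* to *Pdyn* ratio overlapped too, with means of -5.59 and -4.55.

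Each peptide set against its own receptor separated the genotypes. The log2 ratio of *Kiss1* to *Kiss1r* was -0.59, -1.41 and -2.16 in controls and 1.97, 0.33 and 0.55 in mutants, with mutant replicate 1 the highest. For *Pdyn* to *Oprk1* it was -0.82, -0.65 and -0.67 in controls and 1.55, 0.37 and 0.15 in mutants, and the 3 controls lay close together. For *Tac2* to *Tacr3* it was 1.63, 2.04 and 2.07 in controls and 3.49, 2.98 and 3.26 in mutants. The mean differences were 2.34, 1.40 and 1.33. Of the 6 ratios compared, these and *Kiss1* to *Tac2* reached the smallest exact two-sided permutation p possible, 0.1, or 0.15 after Benjamini-Hochberg adjustment, so the design could not bring any of them under 0.05.

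**Figure D3:**
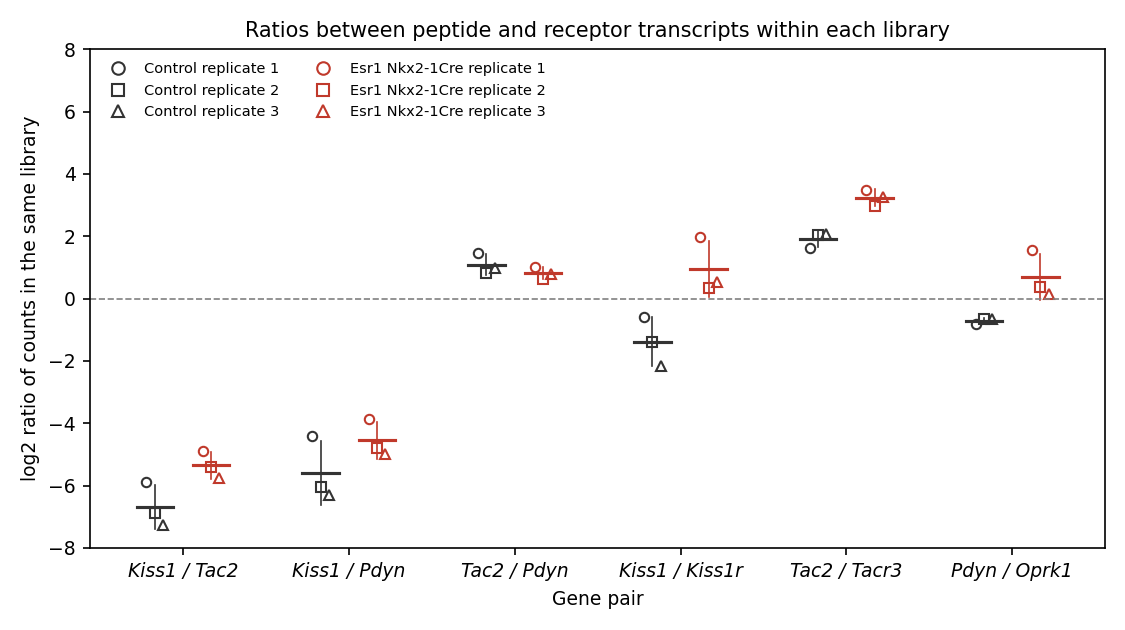
Log2 ratio of counts between the genes of each pair within the same library (y axis, raw counts with 0.5 added), with controls in black, mutants in red, symbols for the replicate number, horizontal bars for the mean and vertical bars for 1 SD of 3 samples. The 3 ratios of peptide to receptor on the right are higher in all mutants than in all controls, while *Tac2* to *Pdyn* and *Kiss1* to *Pdyn* overlap.

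Within genotypes the 7 genes did not vary together as 1 group. Over the deviations of the 6 samples from their genotype means, *Kiss1* had a Pearson r of 0.893 with *Tacr3*, 0.824 with *Gnrh1*, 0.769 with *Tac2*, 0.136 with *Pdyn*, 0.0971 with *Kiss1r* and -0.954 with *Oprk1*. *Tac2* and *Pdyn* had an r of 0.661. These values are descriptions over 6 samples that differed in depth and in markers of tissue around the ARC. The part of such differences in these values was not tested. Among 14474 genes, those most like *Kiss1* were *Hk1os* (0.999), *Prpf4b* (0.998) and *Cdk10* (0.998), ahead of *Tacr3* at rank 547. The genes most like *Tac2* were *Alk*, *Fam89b* (both 0.999) and *Snx22* (0.997), and those most like *Pdyn* were *Zwilch* (0.998), *Cdk8* and *Odf2* (both 0.993). *Oprk1* ranked 14143 of 14474 in likeness to *Kiss1*, and its lowest library in each genotype was replicate 1, which was also the lowest in ventromedial nucleus markers.

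ERα binds DNA at estrogen response elements, which are built from the half-site GGTCA, and also acts through other factors. The 250 bases before the RefSeq start sites of the 3 peptide genes are shown because these genes were higher in all mutants. They are written 5′ to 3′ on the gene's strand, in lower case with half-sites on either strand (GGTCA or TGACC) in capitals.

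*Kiss1*, chr1:135223539-135223788 on NCBIM37, plus strand: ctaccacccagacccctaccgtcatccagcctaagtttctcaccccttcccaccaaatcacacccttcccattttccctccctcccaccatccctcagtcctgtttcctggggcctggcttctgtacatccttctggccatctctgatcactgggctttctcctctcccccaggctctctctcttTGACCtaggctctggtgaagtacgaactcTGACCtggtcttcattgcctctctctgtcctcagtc
*Tac2*, chr10:127161284-127161533, plus strand: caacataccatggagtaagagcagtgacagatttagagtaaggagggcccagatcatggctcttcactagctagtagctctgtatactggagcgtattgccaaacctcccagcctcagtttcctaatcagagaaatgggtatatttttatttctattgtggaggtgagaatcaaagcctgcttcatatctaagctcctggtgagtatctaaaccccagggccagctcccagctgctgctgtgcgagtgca
*Pdyn*, chr2:129525675-129525924, minus strand: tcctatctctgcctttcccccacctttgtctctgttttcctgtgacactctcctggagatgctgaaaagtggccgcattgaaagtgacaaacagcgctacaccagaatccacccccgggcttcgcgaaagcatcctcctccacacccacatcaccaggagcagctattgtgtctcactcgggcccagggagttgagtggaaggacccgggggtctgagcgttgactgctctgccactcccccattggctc

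The *Kiss1* window held 2 half-sites, beginning 65 and 36 bases before the start site and both reading TGACC on the gene's strand. Of 32851 RefSeq promoter windows of this length, 35.2% held at least 1 half-site and 8.16% held 2 or more. The windows of *Tac2*, *Pdyn*, *Kiss1r* and *Tacr3* held no half-site, a second *Pdyn* start included. The paired element, GGTCA and TGACC separated by 3 bases, was in none of the members' windows and in 0.0639% of all. *Kiss1r* held 2 copies of the GC box GGGCGG (on either strand), where 32.7% of windows held at least 1 and 16.7% held 2 or more. AP-1 sites (TGACTCA or TGAGTCA) were in none of the members' windows and in 4.46% of all. Entries were found for 5 of the 7 genes, without *Oprk1* and *Gnrh1*. The *Kiss1* start lies 5337 bases inside the GENCODE gene, so this window lies inside the gene, where it overlaps an exon at its end, and the *Tac2* start lies outside the GENCODE gene, at -914 bases from its start. A match of letters is not a bound site.

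Around the KNDy circuit, 65 further genes were taken in lists of related peptides, receptors, signalling proteins, processing enzymes and transcription factors, of which 59 passed the filter. Among these, 1 gene rose (*Penk*) and 2 fell (*Esr1* and *Trpc5*) in the edgeR test, and 19 had a p under 0.05 before adjustment, where all tested genes gave 0.118% called and 8.85% with such a p. The genotypes separated upward for 5 genes and downward for 16 of the 59, beside 7.88% of all genes in each direction. These genes were listed with earlier results known. Their median log2 fold change was -0.07, beside 0.00 for all genes tested and -0.27 for the 7 KNDy genes, of which 3 were positive.

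The gene that rose belongs to the opioid list. *Penk*, which encodes the enkephalin precursor, was at 134, 169 and 146.5 CPM in controls against 503, 350 and 388 CPM in mutants (log2 fold change 1.46, SE 0.14, edgeR adjusted p = 0.00672). Without control replicate 3 the edgeR adjusted p was 0.0682. Of the other 4 opioid genes, edgeR called 0 and DESeq2 called 1 (*Oprm1*), where DESeq2 called 1.26% of all genes it tested. *Oprm1*, the mu opioid receptor gene, was at 32.6 ± 0.790 CPM in controls against 22.5 ± 1.40 CPM in mutants (SD, n = 3, edgeR adjusted p = 0.0736, DESeq2 adjusted p = 0.00873). *Pnoc*, for the nociceptin precursor, was at 12.7 and 8.51 CPM, and its receptor gene *Oprl1* at 66.6 and 53.4 CPM, each lower in every mutant. *Oprd1*, the delta opioid receptor gene, overlapped at 10.3 CPM in both genotypes.

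Neither of the other tachykinin genes that passed the filter was called by edgeR or DESeq2. *Tac1*, the substance P gene, was at 50.3 ± 9.95 CPM in controls against 34.5 ± 5.65 CPM in mutants (SD, n = 3), lower in every mutant, with an edgeR adjusted p of 0.355. Its receptor gene *Tacr1* overlapped at 21.4 and 18.5 CPM. Among the other RFamide genes, which are related to *Kiss1* by the ends of their peptides, 0 of 6 were called by edgeR or DESeq2. Over all genes tested, edgeR called 0.118% and DESeq2 called 1.26%. The most abundant, *Qrfpr* and *Npffr2*, overlapped, and *Npffr1* (1.25 and 1.03 CPM) and *Prlhr* (1.33 and 0.959 CPM) were low in both genotypes and lower in each mutant.

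Of the steroid receptors, *Esr1* fell as described. *Pgr*, a classic estrogen target that encodes the progesterone receptor, was at 110.4, 123 and 117 CPM in controls against 64.1, 80.9 and 80.3 CPM in mutants. Its log2 fold change of -0.64 (SE 0.10) gave an edgeR adjusted p of 0.0568 and a DESeq2 adjusted p of 6.69e-05.

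Receptors of kisspeptin and neurokinin B couple to Gq, and TRPC channels carry the depolarization that kisspeptin produces in GnRH neurons. In that list *Trpc5* fell, from 130, 126 and 121 CPM to 74.8, 77.6 and 72.8 CPM (log2 fold change -0.75, SE 0.08, edgeR adjusted p = 0.00508). Without mutant replicate 3 the edgeR adjusted p was 0.0536. The other 10 genes overlapped between genotypes, and *Trpc4* was at 34.2 and 29.1 CPM. The kappa opioid receptor couples to Gi, which opens GIRK potassium channels and closes calcium channels. There edgeR called 0 of 12 genes and DESeq2 called 1 (*Kcnj6*), where DESeq2 called 1.26% of all genes it tested. Of the 12, 4 were lower in every mutant, beside 7.88% of all genes tested. The GIRK2 gene *Kcnj6* was at 50.3, 54.0 and 52.9 CPM in controls against 36.5, 35.9 and 36.4 CPM in mutants (edgeR adjusted p = 0.0568, DESeq2 adjusted p = 0.000700). *Gnai1* was at 621 and 488 CPM, *Gnai2* at 256 and 238 CPM, and *Cacna1a* at 119 and 95.5 CPM.

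Among the 6 genes for enzymes and chaperones that process peptide precursors, 5 log2 fold changes were positive and 3 separated the genotypes upward. Over all genes tested the median log2 fold change was 0.00, and 7.88% separated upward. Of the 6, edgeR called 0 and DESeq2 called 1 (*Cpe*), where DESeq2 called 1.26% of all genes it tested. *Cpe*, carboxypeptidase E, was at 1021 ± 132 CPM in controls against 1387 ± 20.6 CPM in mutants (SD, n = 3, edgeR adjusted p = 0.163, DESeq2 adjusted p = 0.00692). *Pcsk1*, the prohormone convertase gene, was at 64.0 and 87.7 CPM, and *Scg5*, the chaperone of the related convertase, at 224 and 264 CPM. *Pam*, the amidating enzyme gene, overlapped at 252 and 270 CPM.

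For fast transmitters, *Slc17a6*, the glutamate transporter that KNDy neurons use, was at 136, 273 and 220 CPM in controls against 123, 277 and 371 CPM in mutants and so overlapped, with replicate 1 lowest in each genotype as for ventromedial nucleus markers. *Gad1* was lower in every mutant (214 and 169 CPM, edgeR adjusted p = 0.328) and *Gad2* overlapped. Of the ARC transcription factors, *Nhlh2* was at 23.3, 18.4 and 21.7 CPM in controls against 10.7, 6.16 and 6.00 CPM in mutants (log2 fold change -1.48, SE 0.22, edgeR adjusted p = 0.0568, DESeq2 adjusted p = 3.33e-07). *Bsx* was lower in every mutant (8.02 and 4.44 CPM), without passing the test. *Nkx2-1* itself, whose promoter drives Cre, overlapped at 76.9 and 72.2 CPM, and *Tbx3* overlapped at 244 and 232 CPM.

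**Figure D4:**
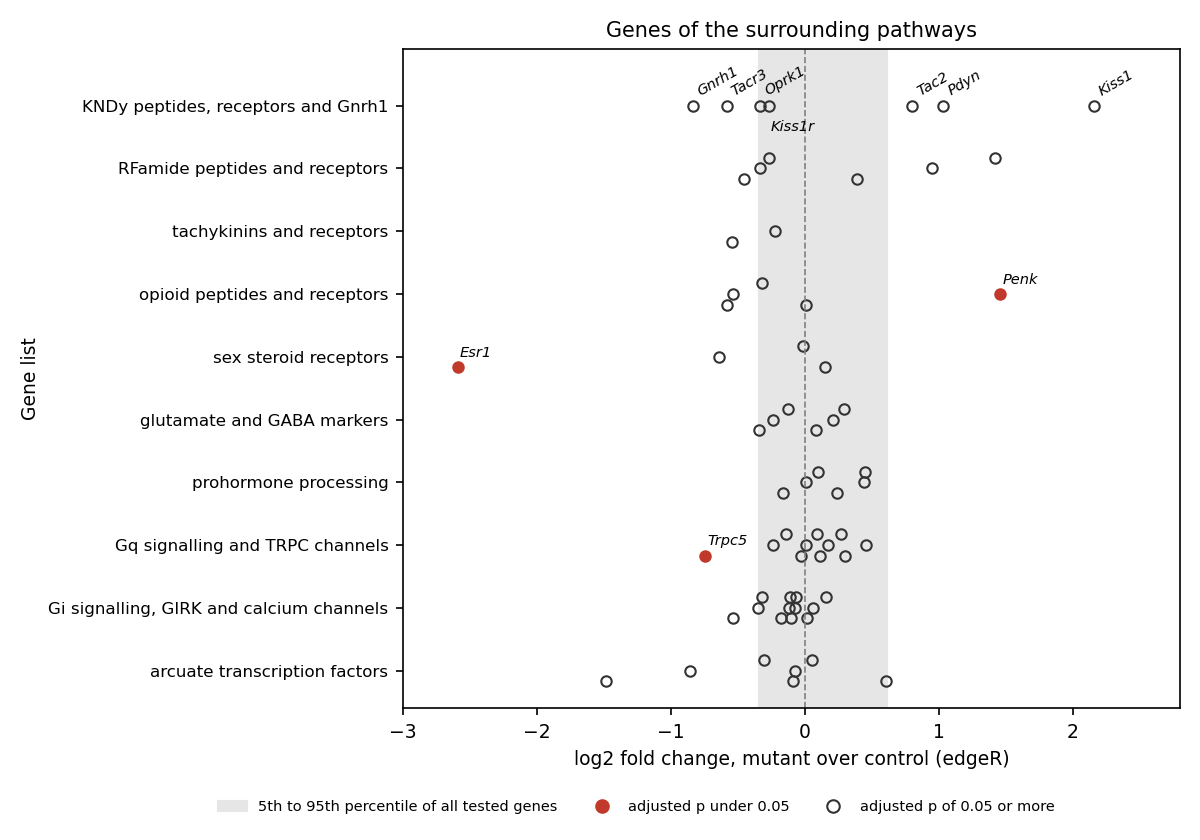
Log2 fold change of mutant over control (x axis, edgeR) for each gene of the KNDy set and of 9 lists of related genes, with red points for genes past the adjusted threshold of 0.05, open points for the others and a grey band for the 5th to 95th percentile of all tested genes. *Penk* on the right and *Esr1* and *Trpc5* on the left passed; *Kiss1*, *Pdyn*, *Tac2*, *Tacr3* and *Gnrh1* lie outside the band from -0.34 to 0.61 without passing.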

How the data were processed

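RNA was prepared from microdissected arcuate nucleus of 3 control and 3 mutant female mice, amplified as cDNA and sequenced. The authors aligned these libraries with TopHat2 and deposited whole-number HTSeq counts of reads on the exons of 24015 gene symbols, without normalization. The submitters' processing notes name TopHat2 2.1.0, HTSeq 0.6, DESeq2 1.14.1 and mm9. The strand setting and annotation of the counting are not given in the sources used here. Reads carried no molecular identifiers, so counts are not counts of molecules, and the floor of 3 counts covers counting error only.

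Samples were grouped by the genotype in their labels. Counts were tested here with edgeR 4.0.16 in R 4.3.3 by its robust quasi-likelihood test on genotype alone, with TMM normalization and edgeR's default filter on low counts. Benjamini-Hochberg adjustment was made over the 15236 genes that passed, with a threshold of 0.05. The study used DESeq2 for its own test, in version 1.14.1 by the submitters' notes. Alternatives here were DESeq2 1.42.0, RLE normalization, DESeq2 with its beta prior, limma 3.58.1 with voom, other filters and a fit without robust estimation. A replicate block and each sample left out in turn were further alternatives.

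Levels are CPM after TMM normalization, and CPM per kilobase of summed exon length where genes are compared. The genes and the lists were chosen with earlier results of these data known. The genes named are the 7 members, *Esr1*, and in each list the genes past the threshold or otherwise the 2 with the highest mean CPM, and any gene whose genotypes did not overlap. Of *Kiss1*, *Tac2* and *Pdyn*, the 3 most similar genes over the 6 samples were named as well. Gene positions were looked up by symbol in GENCODE for NCBIM37. Promoters were taken from RefSeq (GRCm38.p6) and placed on NCBIM37 by exact match. Some items that these rules select are not reported here. *Oprd1*, *Trpc4* and the marker genes named singly were picked after their values were seen.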

Additional observations from a re-analysis of the deposited data

How the results depend on the processing

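The number of genes called was 18, and 191 with DESeq2, 187 with DESeq2 and its beta prior, 106 with a minimum of 1 count in any sample and 123 with the replicate block. It was between 7 and 46 when each sample was left out in turn, with 46 without control replicate 2, 9 without mutant replicate 2 and 7 without mutant replicate 3. Of the 7 KNDy genes, 0 were called in the edgeR test, 3 with DESeq2 and 3 with its beta prior (*Kiss1*, *Tac2* and *Pdyn*), 1 with the replicate block (*Kiss1*) and 0 under each other alternative, with every log2 fold change keeping its sign. Of the genes in the related lists, 3 were called, against 8 with DESeq2, 8 with its beta prior, 7 with a minimum of 1 count, 7 with the replicate block and 2 to 4 with a sample left out. *Penk* was not called with the replicate block (edgeR adjusted p = 0.0626) or without control replicate 3, nor *Trpc5* without mutant replicate 3. The cause of these differences was not tested.

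With DESeq2 the log2 fold change was 2.17 for *Kiss1*, 0.80 for *Tac2* and 1.03 for *Pdyn*. With the beta prior, which shrinks estimates toward 0, it was 0.52, 0.57 and 0.76. With a sample left out, log2 fold changes were 1.47 to 2.71 for *Kiss1*, 0.48 to 0.95 for *Tac2*, 0.84 to 1.17 for *Pdyn*, -0.44 to -0.08 for *Kiss1r*, -0.74 to -0.40 for *Tacr3*, -0.49 to -0.12 for *Oprk1* and -1.02 to -0.49 for *Gnrh1*. None was called.

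Deviations of same-numbered samples of the genotypes correlated at r of 0.281, 0.0466 and -0.00264 for replicates 1, 2 and 3. Differently numbered samples had r from -0.263 to 0.21. These values do not settle whether the samples were paired, and the numbers were not taken as pairs in the main fit. With the replicate block, *Kiss1* had a log2 fold change of 2.13 and an edgeR adjusted p of 0.0152, *Tac2* 0.266 and *Pdyn* 0.347. Depth limits *Kiss1*, *Kiss1r* and *Gnrh1* most, with as few as 11, 29 and 42 counts in a library.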
